A study of Oryza sativa Japonica Group with 3 samples.

Results

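ELF3 signal stood alone at 285 places on the chromosome arms of rice, out of 824 ELF3 regions in all (34.6%). These 285 isolated regions were the ones with no other ELF3 region within 5 kb, measured from edge to edge, and with their strongest point more than 5 Mb from the centromere. The other arm regions, 443, had an ELF3 neighbour within 5 kb, and 96 lay near a centromere. The 285 were chosen by the positions of the ELF3 peaks and of their strongest summits, from the same peak list that gives strength. Strength, width and summits are therefore given as a description, without a test.

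The evening complex is a night-time repressor of the plant circadian clock. In Arabidopsis, where it is best known, ELF3 is the scaffold without a DNA-binding domain of its own, and the MYB-type protein LUX brings the complex to DNA. In rice, the complex acts on the clock and on flowering in response to day length.

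The peak lists come from chromatin immunoprecipitation followed by sequencing (ChIP-seq) on whole Nipponbare seedlings, a japonica rice cultivar. Plants of 14 days had grown at 28 °C in 10 h of light and 14 h of darkness, and 20 plants per genotype were pooled at zeitgeber time 14 (ZT14), counted in hours from lights on and thus after dark. ELF3 was precipitated from wild-type plants with a custom antibody, and wild-type input DNA was the control. LUX was precipitated with an anti-MYC antibody from plants that carry a c-MYC-tagged genomic OsLUX driven by its own promoter. Plants of the elf3-1 line, listed in the study's design, were not analysed here, and the ELF3 signal therefore has no genetic check in these values. Each group is 1 library from a pool, so no spread between plants or precipitations was measured. After filtering, 18357646 ELF3 tags, 20173598 LUX tags and 14797701 input tags remained. Positions are on IRGSP-1.0 as deposited. Genes and sequence under the regions were not analysed here.

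Most isolated regions were of modest strength. Fold enrichment, the authors' ratio of ELF3 signal to local input background at the summit, ran from 2.00 to 12.3 with a median of 3.29. The number of ELF3 tags at the summit ran from 40 to 271 with a median of 64. Of the 285 regions, 111 lay below 3-fold, 125 between 3-fold and 5-fold, 37 between 5-fold and 8-fold, and 12 at 8-fold or above. At 3-fold or more lay 174 isolated regions (61.05%), a larger share than the 54.98% of all 824 ELF3 regions. The share was similar near centromeres (60.4%) and lower in arm regions with a neighbour within 5 kb (49.9%). At the higher limits given next the isolated share was smaller than that of all regions. An enrichment of 5-fold or more was reached by 49 isolated regions (17.2%), where the share over all 824 ELF3 regions was 21.6%. For 10-fold or more the numbers were 6 isolated regions (2.11%) and 6.43% of all regions. A −log10 q of 10 or more, a stricter limit than the authors' own, was met by 140 isolated regions (49.1%), beside 44.9% of all regions. Near centromeres it was 53.1%, and in arm regions with a neighbour within 5 kb 40.4%.

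**Figure D1:**
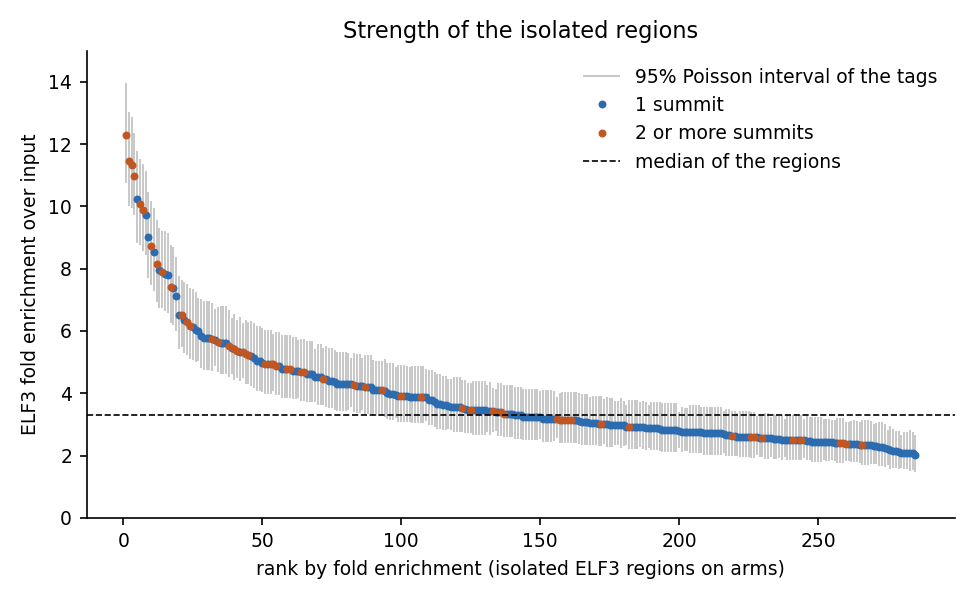
Fold enrichment of ELF3 over input (y axis) for the 285 isolated regions in order of strength (x axis, rank). Points are regions, coloured by whether 1 summit or several were resolved, grey lines are 95% Poisson intervals of the tags, and the dashed line is the median of 3.29; 12 regions lie at 8-fold or above and the curve is nearly flat below 3-fold.

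The strongest isolated region lay at chr7:3356408-3358037, with 231 ELF3 tags at its summit and 12.3-fold enrichment (95% Poisson interval 10.8 to 14.0). It ranked only 24th of all 824 ELF3 regions. On chromosome 5 the region from 24292944 to 24294610 held 226 tags and was enriched 11.4-fold (10.01 to 13.03). It stood 1612 kb from the next ELF3 region. On chromosome 4 the region from 27459084 to 27460973 held 238 tags, with 11.3-fold enrichment (9.96 to 12.9). The intervals of these 3 regions overlap, and at this depth they cannot be ranked.

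The most tags at the strongest summit of any isolated region, 271, were found at chr3:7978102-7980370. Its enrichment was only the fourth highest, 10.97-fold (9.71 to 12.4), and the local input background there was 1.33 times the genome-wide value. On chromosome 6 the region from 27236006 to 27236768 was enriched 10.2-fold (8.84 to 11.8, 192 tags) over a width of 763 bp. It had 1 summit, the only one of the 6 regions above 10-fold without a second summit in this peak list. The last of the 6, at chr8:4623482-4629550, reached 10.1-fold (8.76 to 11.5, 211 tags) and is described with its summits further on.

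Another 6 regions had 8-fold to 10-fold enrichment. They were at chr8:23034915-23036388 with 9.89-fold (8.56 to 11.4), and at chr3:30709585-30710453 with 9.73-fold (8.45 to 11.2). The region at chr4:23151718-23152091 was the narrowest of the 12 strongest, with 374 bp, and was enriched 9.01-fold (7.71 to 10.5, 169 tags). A second region of chromosome 3, from 30204803 to 30206225, was enriched 8.74-fold. The region at chr2:209974-210693 was enriched 8.53-fold, and that at chr10:2505093-2506036 was enriched 8.16-fold. All 12 had a −log10 q between 66.0 and 142.

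The strongest isolated regions of the remaining chromosomes were weaker. On chromosome 9 it was 20405817 to 20406170 with 7.37-fold (6.20 to 8.69, 138 tags). On chromosome 1, which held 33 isolated regions, none exceeded 5.99-fold (5.05 to 7.06, 140 tags), at 11203332 to 11203916. On chromosome 11 the highest was 5.46-fold at 3102332 to 3103270, with 141 tags, and on chromosome 12 it was 4.72-fold at 3397159 to 3397444, with 88 tags. The regions on chromosomes 9, 1 and 11 held nearly equal numbers of tags, and their backgrounds were 1.00, 1.26 and 1.41 times the genome-wide one.

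At the other end, the weakest isolated regions were barely above the authors' threshold. The lowest enrichment, 2.00-fold (1.48 to 2.66, 46 tags), was at chr4:27787334-27787686. Next came the regions at chr3:30962596-30962901 with 2.07-fold (1.53 to 2.75, 45 tags) and at chr10:21762749-21763032 with 2.08-fold (1.502 to 2.81, 40 tags). Their −log10 q values were 1.74, 1.91 and 1.59.

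The input background that the caller used was at its lowest value under most isolated regions. In 165 of them (57.9%) it equalled the caller's genome-wide background of 14.2 scaled tags, and over all ELF3 regions the share was 61.9%. That value rests on the genome size given to the caller, which was smaller than the arms alone. No ELF3 region had a lower one, so this value is a floor, and local input below it cannot be seen. In the other 120 the local background was raised, to a median of 1.16 times and at most 1.83 times the genome-wide value. Summits in both sets held similar numbers of tags, with medians of 64 and 64.5, while median fold enrichment was 3.45 at the genome-wide background and 3.03 at a raised one. Fold enrichment divides by this background, so the lower median is partly set by construction. The highest background, 1.83 times, was at chr1:27223512-27223897, a region singled out after its value was seen, where 92 tags gave 2.78-fold enrichment.

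Isolated regions were narrow and mostly had 1 summit. The median width was 376 bp, between 202 and 6069 bp, and the lower end is the caller's minimum, the fragment length of 202 bp. Of the 285 regions, 93 (32.6%) were narrower than 300 bp, 18 (6.32%) were 1 kb or wider, and 2 (0.702%) were 2 kb or wider. Over all ELF3 regions 28.9% were narrower than 300 bp, 15.5% were 1 kb or wider and 4.98% were 2 kb or wider. A single summit was resolved in 228 isolated regions (80.0%, 95% Clopper-Pearson interval 74.9 to 84.5%), beside 70.9% of all ELF3 regions. Another 42 had 2 summits, 12 had 3, 2 had 4 and 1 had 10.

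Set beside the other kinds of ELF3 region, the isolated regions reached less far into high enrichment, and their median lay between those of the other kinds. The median enrichment was 3.29-fold in isolated arm regions, 2.99-fold in the 443 clustered arm regions and 3.50-fold in the 96 regions near centromeres. At the upper end, 90% of the isolated regions lay below 5.78-fold, of the clustered arm regions below 9.46-fold and of those near centromeres below 8.85-fold. Median widths were 376, 475 and 392 bp. These differences were not tested, because the kinds were cut from the same list, and a broad stretch of signal that the caller divides into several regions counts as clustered.

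Among the 228 isolated regions with 1 summit, the summit lay near the middle. Its distance from the centre of the region had a median of 23.5 bp, or 6.85% of the width, and in 219 of the 228 it lay within the central part between 25% and 75% of the width. They were 330 bp wide and enriched 3.19-fold at the median. The widest of them measured 957 bp and the strongest was the 10.2-fold region on chromosome 6.

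Wider isolated regions were also stronger. Across the 285 regions, Spearman's rho between width and fold enrichment was 0.62, and across the 228 with 1 summit it was 0.56. Both values come from the same signal at the same regions, so they are a description. Regions below 3-fold had a median width of 278 bp, those from 3-fold to 5-fold 429 bp, those from 5-fold to 8-fold 641 bp, the 6 from 8-fold to 10-fold 907 bp, and the 6 above 10-fold 1779 bp. The region of 374 bp on chromosome 4 with 9.01-fold enrichment departed from this order, as did the region of 1593 bp at chr2:34048114-34049706, which had 4 summits and only 4.27-fold enrichment.

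**Figure D2:**
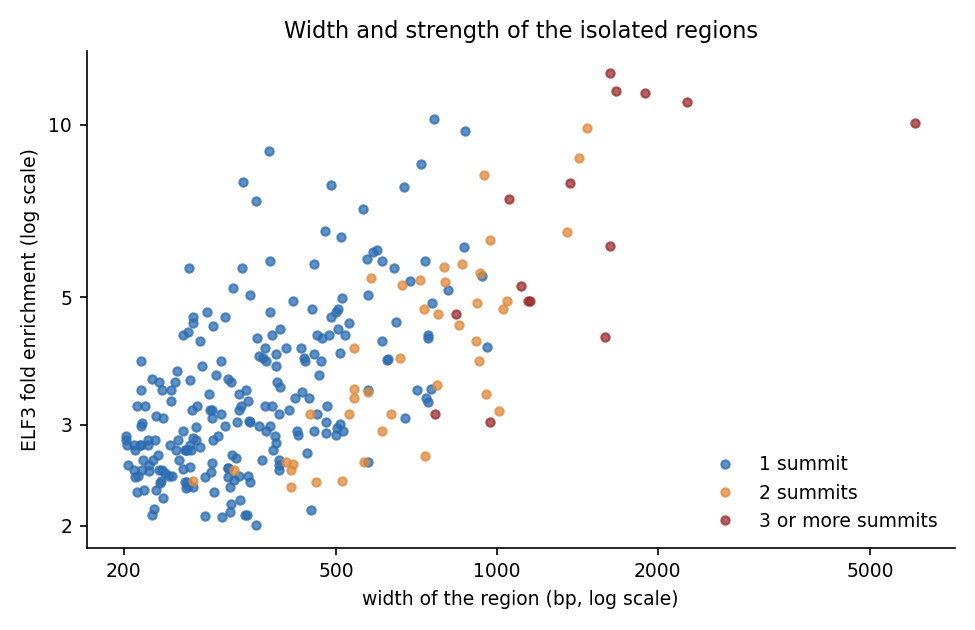
Width in bp (x axis, log scale) against ELF3 fold enrichment (y axis, log scale) for the 285 isolated regions, one point each, coloured by the number of summits. Of the regions with 3 or more summits, 5 lie above 10-fold, and regions with 1 summit reach up to 957 bp and 10.2-fold.

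The 57 isolated regions with several summits were the wider and stronger part of the set, with medians of 837 bp and 4.67-fold. Secondary summits were mostly weak. The 81 of them had a median enrichment of 2.57-fold, 59 were below 3-fold, and neighbouring summits were a median of 351 bp apart. In 19 of the 57 regions the second summit had less than 50% of the enrichment of the first, and in 18 it had at least 80% of it.

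The 4 strongest regions with several summits each had 1 dominant summit with minor ones beside it. On chromosome 7 the 12.3-fold summit was flanked by one of 5.62-fold at 373 bp and one of 2.87-fold at 549 bp on the other side. On chromosome 5 the summits beside the one of 11.4-fold reached 2.76-fold and 2.45-fold, at 817 and 1062 bp on the same side. On chromosome 4 those beside the 11.3-fold summit reached 2.98-fold and 2.78-fold, at 542 and 967 bp. In the 2269 bp region on chromosome 3, 3 minor summits lay on 1 side of the main one, at 610, 844 and 1673 bp, with 3.62-fold, 3.20-fold and 2.34-fold enrichment.

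Some weaker regions, of which the first 2 here were singled out after their values were seen, had summits of more even height. On chromosome 4 from 22837212 to 22837976, 3 summits of 2.82-fold, 3.13-fold and 3.03-fold held 52, 58 and 56 tags. On chromosome 1 from 39793450 to 39794600 the summits had 3.53-fold, 4.93-fold and 4.16-fold enrichment, with 82, 115 and 102 tags. On chromosome 2 the 4 summits of the region from 34048114 to 34049706 held 53, 55, 80 and 69 tags. The summit with 69 tags had only 2.46-fold enrichment, with an input background of 22.0 scaled tags.

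**Figure D3:**
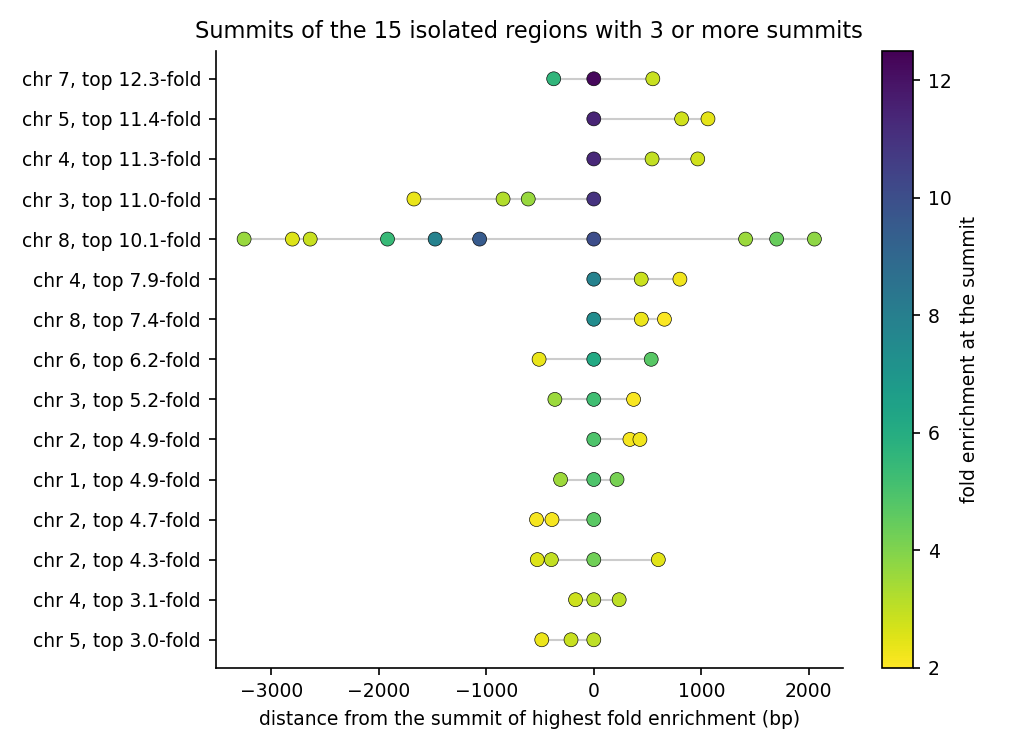
Summits of the 15 isolated regions with 3 or more summits, placed by their distance in bp from the summit of highest enrichment (x axis), with 1 line per region in order of its highest enrichment (y axis) and colour for the fold enrichment of each summit. In the 4 regions at the top 1 summit stands above all others, and the region on chromosome 8 has 10 summits spread over 5305 bp.

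The region at chr8:4623482-4629550 was unlike the other isolated regions in width and number of summits. It was 6069 bp wide, the next widest being 2269 bp. Its 10 summits, in the order of their positions, held 71, 68, 67, 101, 159, 270, 211, 83, 83 and 70 ELF3 tags. Enrichment was 3.61-fold at the first summit, 2.54-fold and 2.90-fold at the following ones, 5.41-fold at the fourth, 7.90-fold at the next, 9.51-fold at the sixth and 10.1-fold at the seventh. It was between 3.57-fold and 4.46-fold at the last 3. The sixth summit had the most tags, but the input background there was 22.0 scaled tags, against 16.0 at the seventh. The next ELF3 region was 7493 bp away, so a distance limit of 10 kb would have placed this region among the clustered ones.

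This same region was the only isolated one that held a LUX region, 1 of 285 (0.351%, 95% Clopper-Pearson interval 0.00888 to 1.94%), where 1.82% of all ELF3 regions held one. LUX and ELF3 were called against the same input library, so the count is given as a description. LUX was enriched 2.96-fold (2.17 to 3.95, 43 tags) from 4625658 to 4625950 on chromosome 8, at a local background 1.16 times its genome-wide value. The LUX summit lay 1242 bp from the strongest ELF3 summit, and 180 and 234 bp from the summits of 9.51-fold and 7.90-fold ELF3 enrichment. In the submitters' other LUX call this LUX region was not called, and 0 of the 285 isolated regions held LUX, which allows a share of up to 1.05% by the limit of 3 counts of the total (1.29% as the upper end of the 95% Clopper-Pearson interval).

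Most ELF3 regions of any kind were far from LUX. The median distance to the nearest LUX region was 1528 kb for isolated regions and 1167 kb over all 824. A LUX region lay within 100 kb of 13 of the 285 (4.56%), beside 108 of all 824 (13.1%). Of these 108, 76 were clustered arm regions. Several regions of 1 domain can each count there, so the 2 shares do not count places alike. The next nearest after the region on chromosome 8 was at chr1:41950923-41951879, at 2076 bp, with 4.10-fold ELF3 enrichment. Then came the region at chr4:1152011-1152214, at 5620 bp, with 2.55-fold. Both were singled out after their distances were seen. Of the 12 isolated regions at 8-fold or more, 1 held a LUX region, beside 10 of 60 clustered arm regions and 3 of 12 regions near centromeres at that strength. These kinds make up all 84 ELF3 regions at 8-fold or more, and several regions of 1 domain can each count here too. The LUX list was short, with 177 regions, and 91 in the submitters' other LUX call, beside 824 for ELF3. The LUX library kept more tags after filtering than the ELF3 library. A missing LUX call does not show that LUX is absent.

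The submitters called the same ELF3 and input reads a second time with another lower bound on the fold used to model fragments, 5 in place of 2, which changed the fragment length from 202 to 197 bp. This is a change of settings and no replicate, so the interval given next measures no spread between libraries. Of the 285 isolated regions, 280 (98.2%, 95% Clopper-Pearson interval 96.0 to 99.4%) overlapped a region of that other call, beside 98.5% of all ELF3 regions. Each of the 280 matched exactly 1 region there. The numbers were the same when an overlap of 50% of both regions was required.

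The values of the 280 regions hardly moved. The ratio of fold enrichment in the other call to that in the main call had a median of 1.00 and ran from 0.915 to 1.10, and it was within 5% of equality in 264 regions. The strongest summit moved by a median of 1 bp and by at most 10 bp in 265 regions. The number of summits was the same in 267 regions, larger in 10 and smaller in 3. Among the 10 were strong regions. The 10.2-fold region on chromosome 6 had 2 summits there in place of 1. The 11.3-fold region on chromosome 4 had 5 in place of 3, and the 8.16-fold region on chromosome 10 had 3 in place of 2. The 12 strongest isolated regions were also the 12 strongest in the other call, led again by chromosome 7, with 12.4-fold.

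A few regions shifted more. On chromosome 2 from 34059867 to 34060278 the strongest summit moved by 287 bp between 2 summits, with 2.34-fold in each call. On chromosome 9 from 20751438 to 20752069 it moved by 282 bp, with 3.13-fold and 3.21-fold enrichment. The largest loss of width was at chr8:20829681-20830688, from 1008 to 699 bp. These 3 regions were singled out after their shifts were seen.

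The 5 isolated regions without a match were all weak and had 1 summit each. They lay at chr1:29555898-29556234 with 2.09-fold (1.55 to 2.75, 48 tags), at chr3:33112689-33113005 with 2.18-fold (1.58 to 2.95, 40 tags), and at chr11:6127614-6127908 with 2.29-fold (1.67 to 3.07, 42 tags). The others were at chr6:24345031-24345292 with 2.33-fold (1.72 to 3.10, 45 tags) and at chr10:13894993-13895231 with 2.47-fold (1.86 to 3.22, 52 tags). Their −log10 q values ran from 1.97 to 4.03. Of the 62 isolated regions with a −log10 q below 5, 57 were found again, and of the 223 at or above 5 it was all 223.

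**Figure D4:**
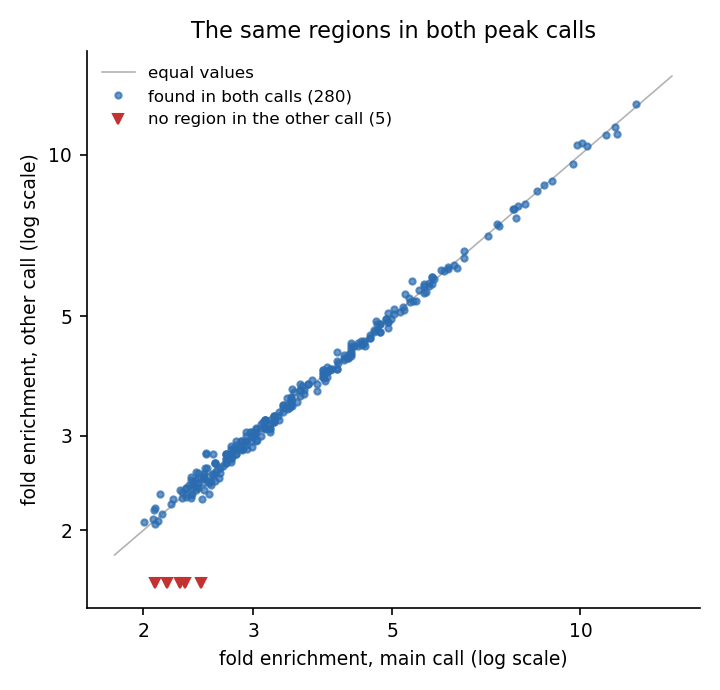
Fold enrichment of the same isolated regions in the main call (x axis, log scale) and in the submitters' other call (y axis, log scale), 1 point per region, with a line of equal values. The 280 regions found in both calls lie along the line, and the 5 regions without a match (triangles, drawn below the axis range of the others) lie between 2.09-fold and 2.47-fold.

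Isolation itself depended a little on the call. Of the 280 regions found again, 274 also met the rule in the other call, and 6 had gained a neighbour within 5 kb there. The neighbours were 123 to 1048 bp away, for example on chromosome 7 at 25768985 to 25769558, whose distance to the next region fell from 49396 to 123 bp. The largest of the 6 in enrichment was at chr4:26537670-26538479, with 5.15-fold in the main call and 5.10-fold in the other. Both of these were singled out after their values were seen. Applied to the other call as a whole, the rule gave 289 regions.

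Along the genome the isolated regions were spread over all 12 chromosomes, with 51 on chromosome 3, 39 on chromosome 4, 38 on chromosome 2 and 33 on chromosome 1. Chromosome 12 held the fewest, 7. Per Mb of arm, taken up to the furthest peak of any list, their density was 1.14 over the genome and ran from 0.417 on chromosome 12 to 1.95 on chromosome 3. Clustered arm regions had a density of 1.77 per Mb and ran from 0.634 on chromosome 11 to 3.06 on chromosome 7.

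Chromosomes differed in how their arm regions divided into isolated and clustered ones. On chromosome 7, 15 of 75 arm regions were isolated (20.0%), and on chromosome 12 it was 7 of 29 (24.1%). On chromosome 5 it was 18 of 31 (58.1%), on chromosome 11 it was 12 of 24, and on chromosome 3 it was 51 of 106 (48.1%). Clustered regions of 1 domain are not separate places, so these shares were not tested. The median enrichment of isolated regions by chromosome ran from 2.61-fold on chromosome 12 to 3.90-fold on chromosomes 7 and 8. On chromosome 8, 8 of 16 isolated regions had several summits, and on chromosome 12 it was 0 of 7.

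**Figure D5:**
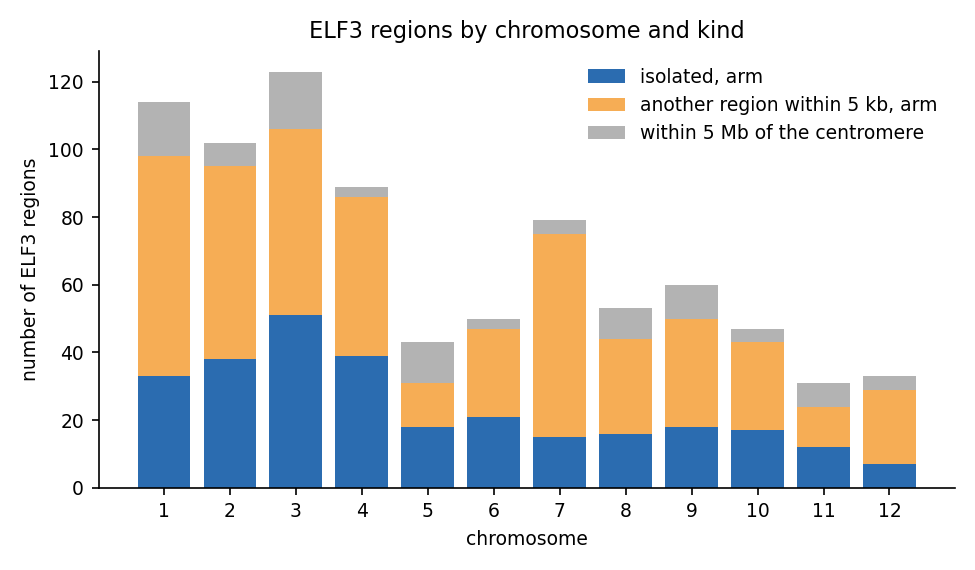
Number of ELF3 regions (y axis) on each of the 12 chromosomes (x axis), stacked as isolated arm regions, arm regions with another region within 5 kb, and regions within 5 Mb of the centromere. Chromosome 3 has the most isolated regions (51) and chromosome 12 the fewest (7), and on chromosome 7 clustered regions make up 60 of 79.

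The arms were unequally filled with isolated regions. On chromosome 4 the arm below the centromere, at lower coordinates, held 1 isolated and 0 clustered regions in 4.70 Mb, and the arm above it 38 isolated regions in 20.8 Mb, or 1.83 per Mb. On chromosome 8 there were 2 isolated regions in 7.90 Mb below the centromere and 14 in 10.2 Mb above it. Clustered regions differed less there, with 11 below (1.39 per Mb) and 17 above (1.67 per Mb). On chromosome 3 the arm below the centromere was the denser one in isolated regions, with 32 in 14.4 Mb (2.22 per Mb) and 19 in 11.8 Mb above it. Its clustered regions were about as dense below (2.08 per Mb) as above (2.12 per Mb). On chromosome 9 the arm below the centromere lies wholly within 5 Mb of it and could hold none.

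Isolated regions stood at a median of 148 kb from the next ELF3 region. The distance was over 100 kb for 178 of them and over 1 Mb for 17. The most remote, chosen after the distances were seen, was the region at chr4:1152011-1152214, the one on the sparsely filled arm, at 7.15 Mb, with 2.55-fold enrichment (1.97 to 3.25, 62 tags). The second was at chr6:21064433-21064724, at 3.02 Mb, with 3.08-fold, and the third at chr7:17180011-17180929, at 2.24 Mb, with 4.88-fold. Across the 285 regions, Spearman's rho of strength with the distance to the next ELF3 region was 0.05, and with the distance to the centromere it was −0.02.

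For 186 isolated regions (65.3%) the nearest ELF3 region was itself isolated, and for 94 it was a clustered arm region. Only the outer regions of a cluster can be nearest to an isolated one, so this share is shaped by the rule and was not tested. In 7 places a pair of isolated regions stood within 20 kb of each other, each being the nearest of the other. The strongest pair was on chromosome 6, where the 10.2-fold region was followed after 14788 bp by one from 27251557 to 27253183 with 3 summits and 6.15-fold enrichment. The closest pair was on chromosome 2, 5131 bp apart, with 3.08-fold and 4.27-fold enrichment. Both pairs were singled out after their values were seen.

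Some regions lay close to the limits of the rule. Just inside the 5 kb limit were the region at chr12:4547239-4547687, at 5030 bp with 2.13-fold, and both regions of the pair on chromosome 2. Just outside it were regions at 4996 bp on chromosome 2 (3.74-fold), at 4710 bp on chromosome 12 (4.24-fold) and at 4230 bp on chromosome 9 (2.55-fold). Just inside the 5 Mb limit were regions at 5.01 Mb from the centromere on chromosome 1 (2.39-fold), at 5.08 Mb on chromosome 7 (4.88-fold) and at 5.15 Mb on chromosome 5 (3.19-fold). Just outside it were regions at 4.96 and 4.84 Mb on chromosome 1 (2.61-fold and 3.03-fold) and at 4.75 Mb on chromosome 5 (3.56-fold).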

How the data were processed

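Per the submitters' processing notes, BWA, MACS2 and deepTools were used on the build IRGSP-1.0, with no roles given; the settings of the alignment: not given in the sources used here. MACS 2.2.7.1 called each ChIP library against the single input, at a q-value threshold of 0.05 and with 1 tag kept per position, per the file headers. The deposited pileup is the coverage signal in extended tags at a summit, scaled towards the smaller library. The deposited fold enrichment is a ratio, (pileup + 1)/(local background + 1). Significance is deposited as −log10 of the caller's p and q. The call with the lower model bound of 2 was the main one.

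Lines of identical chromosome, start and end were taken as 1 region, with its most enriched summit as representative. Centromeres were taken at 1 rounded position per chromosome, which does not come from these files. Pileups divided by the ratio of library sizes, 0.806 for ELF3, gave whole tags within 0.01. The background was recovered from pileup and enrichment and counted as genome-wide within 0.01 scaled tags. The caller used an effective genome size of 2.10e+08 bp, which sets that genome-wide background. Intervals (95%) are Poisson on tags and Clopper-Pearson on shares. Those on enrichment cover the counting error of the ChIP tags only. The background was held fixed in them, and the counting error of the input is left out. Intervals of shares and medians treat the regions as independent draws, though they are the full list from 1 library. They measure no spread between libraries. The limit on a share of 0 is 3 counts of the total. Overlap means at least 1 bp. Regions are not replicates, and no test was made with 1 library per group.

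The rule, the comparisons and the regions to be named were chosen with earlier results of these data known. Named regions are the 12 strongest, the strongest per chromosome, the widest, weakest and most summit-rich, those with LUX, those absent from the other call and those at the limits; others are marked as singled out after their values were seen. Joining, distance and overlap steps were tested on simulated lists. Software versions were Python 3.11.15, numpy 2.4.6, pandas 2.3.3 and scipy 1.17.1, with figures by matplotlib 3.10.9.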

Additional observations from a re-analysis of the deposited data

Results flagged for a closer look

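The submitters' other ELF3 call held signal outside the main list: 11 isolated arm regions without any counterpart in the main call. These were 11 of the 289 isolated arm regions of that call, beside 30 of all its 843 regions. The shares are close, so lacking a counterpart was no trait of isolated regions. All 11 had 1 summit. Their width was 199 bp and their enrichment 2.56-fold at the median, between 2.13-fold and 3.05-fold, with 38 to 55 ELF3 tags. The strongest was at chr1:2711317-2711513, with 3.05-fold (95% Poisson interval 2.31 to 3.95, 55 tags) and a −log10 q of 7.33. It was followed by chr7:1047997-1048194 with 2.83-fold (2.12 to 3.70) and chr3:28266926-28267122 with 2.72-fold (2.03 to 3.58). Widths of 197 and 198 bp in these 3 are at the minimum of 197 bp that the other call's fragment length sets, below the 202 bp minimum of the main call.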

How the results depend on the processing

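Of 35 alternative values for the number, strength, width, summits, LUX content and refinding of the isolated regions, 28 stayed within 1.5 times of a count, or within the 95% interval of a median or share, and 7 did not. With a −log10 q of 5 or more, median enrichment was 3.72-fold and median width 431 bp. With a −log10 q of 10 or more, 140 regions were left, with 4.51-fold, 511 bp and 71.4% with 1 summit. Both limits remove weak regions by construction. They were applied to the regions already chosen as isolated, and isolation was not worked out again on a filtered list. The counts under these limits are among the 35 values, but how the number of isolated regions depends on the q threshold was not tested. With the other LUX call 0 isolated regions held LUX, in place of 1. Isolation distances of 2 and 10 kb gave 316 and 269 regions, and centromere limits of 3 and 8 Mb gave 307 and 246. No paired analysis was possible because each group holds 1 library. Other windows for gene position and for motifs were not run, since no genome or annotation of IRGSP-1.0 was used here.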
